A study of Mus musculus with 4 samples.

Results

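H19, Igf2 and the insulin-like growth factor (IGF) axis were followed in primary mouse oligodendrocytes as 10 genes, taken by name out of 23435 genes with a usable value: the noncoding RNA H19, the ligand genes Igf2 and Igf1, the receptor genes Igf1r, Igf2r and Insr, and the binding protein genes Igfbp2, Igfbp3, Igfbp4 and Igfbp5. The genes were chosen by name with their FPKM and fold changes in the present libraries known, so the differences between genotypes in these 10 genes are descriptions and carry no p-value. Where a member is said to pass or miss a threshold of adjusted p, this only describes it and is no test of it. RNA was sequenced from 2 lncOL1KO samples, labelled lncOL1-/-, and from 2 Ctrl samples, which share 1 genotype label that covers lncOL1+/+ and lncOL1+/- and does not assign either to a sample. All 4 samples are primary oligodendrocyte precursor cells of a mixed strain background, kept for 1 day with T3, a thyroid hormone that starts oligodendrocyte maturation in culture. The comparison asks which genes depend on lncOL1, a long noncoding RNA of the oligodendrocyte lineage. The labels name no separate animals or cultures, so any p-value reflects the spread among 4 samples and that spread may be technical.

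H19 and Igf2 are neighbouring imprinted genes. H19 is transcribed from the maternal chromosome and Igf2 from the paternal one. A control region that CTCF binds only where it is unmethylated decides which of them reaches their shared enhancers. IGF-I and IGF-II signal through the IGF-I receptor (Igf1r) and, for IGF-II, also through an isoform of the insulin receptor (Insr), while the IGF-II receptor (Igf2r) carries IGF-II to lysosomes for breakdown. The binding proteins hold most of the ligand outside cells and can block or prolong its action. In the oligodendrocyte lineage, IGF-I acting on its receptor is known to favour survival, precursor proliferation and myelin formation.

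Each member of the H19 and Igf2 pair hosts a microRNA. Mir675 lies inside an exon of H19 (chr7:142577064-142577147, minus strand) and Mir483 inside Igf2 (chr7:142654924-142654996, minus strand), both in RefSeq's GRCm38.p6 and GENCODE M21. Their mature sequences, from RefSeq, are shown because their host RNAs are the members called higher, with the seed (bases 2 to 8) in capitals, and no 2 of the 4 seeds are the same.
mmu-miR-675-5p: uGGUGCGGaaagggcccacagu
mmu-miR-675-3p: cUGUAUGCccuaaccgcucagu
mmu-miR-483-5p: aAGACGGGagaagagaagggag
mmu-miR-483-3p: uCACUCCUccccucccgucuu
Mir675 was listed at 6.23e-07 to 2.87e-06 FPKM (fragments mapped per kilobase of transcript and per library size) over the 4 libraries, and Mir483 was listed at 0 in each. These rows say nothing of the mature microRNAs, because fragments from the hairpin of Mir675 are also fragments of H19 and the libraries were not made with a small RNA kit.

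lncOL1 (9630013A20Rik in the files) was at 5.54 and 5.06 FPKM in the lncOL1KO libraries and at 28.9 and 34.0 FPKM in the Ctrl libraries (log2 fold change -2.36, SE 0.097, limma adjusted p = 0.000389). Summed FPKM ranged from 373484 to 383128 over the 4 libraries, and the number of reads behind a value is not given in the files. Of 10 oligodendrocyte lineage markers, all 10 passed the filter of a mean of at least 1 FPKM. In bulk RNA, fewer cells of a type and less RNA per cell cannot be told apart.

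Of the 10 genes, 8 reached the filter, and Igf1 and Igfbp4 did not. Across all 11361 genes tested, 1.31% passed limma's adjusted p threshold of 0.05, and of the 8 members 2 passed as higher (H19 and Igf2), 1 passed as lower (Igfbp3) and 5 did not pass. The median log2 fold change of the 8 was 0.06, against 0.005 over all genes tested. The 2 groups did not overlap for 43.4% of all genes tested and for 5 of the 8 members, 3 with the lncOL1KO libraries above (22.6% of all genes tested) and 2 with them below (20.7%). Since the members were chosen with these values known, nothing is read from these shares. The authors' deposited table marks 4 of the 10 as significant, against 5.78% of its genes with status OK. H19 and Igf2 are marked as higher, against 1.74% of its genes, and Igfbp3 and Igf1r as lower, against 4.04%.

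**Figure D1:**
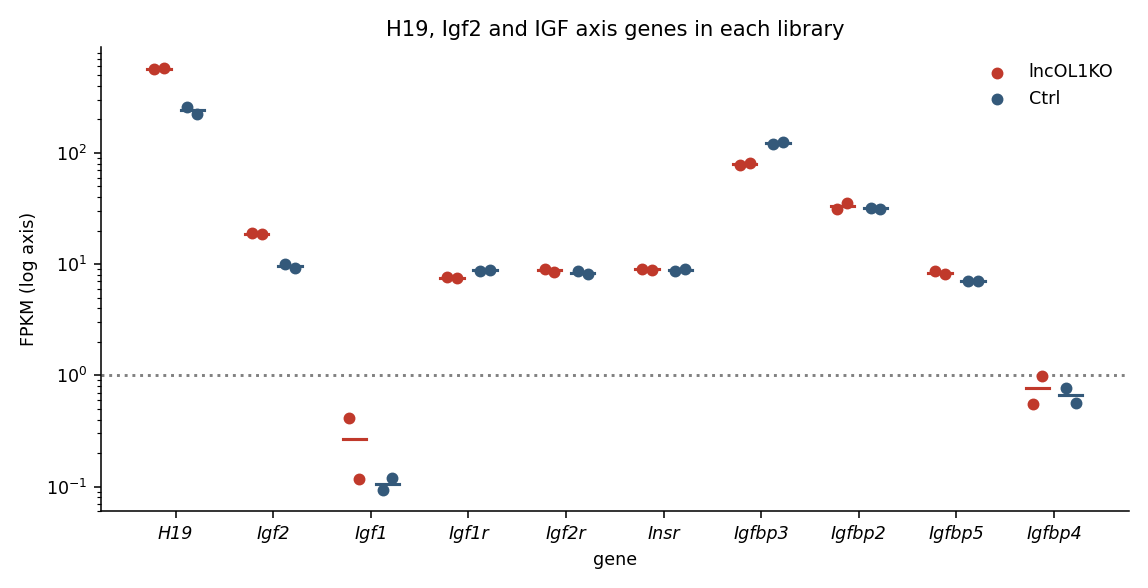
FPKM of the 10 genes in each library on a log axis, lncOL1KO in red left of Ctrl in blue. Points are the 2 libraries of a group, short bars are group means, and the dotted line is the filter of 1 FPKM. H19 and Igf2 sit higher and Igfbp3 lower in both lncOL1KO libraries.

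H19 was the most abundant of the 10 genes in all 4 libraries. It lies on chromosome 7 at 142575532 to 142578146 in the files (mm10), on the minus strand, and is annotated as a lincRNA with 7 transcripts in GENCODE M21. Its level was 563.4 and 575.6 FPKM in the lncOL1KO libraries and 261.6 and 225.8 FPKM in the Ctrl libraries. The lncOL1KO libraries were close to each other, the Ctrl libraries were further apart, and the groups did not overlap. H19 thus averaged 569.5 ± 8.58 FPKM in lncOL1KO and 243.7 ± 25.3 FPKM in Ctrl (SD, n = 2 each), a ratio of 2.34 and a log2 fold change of 1.23 (SE 0.088). Among all 23435 genes it ranked 78th and 72nd by FPKM in lncOL1KO and 207th and 231st in Ctrl. It made up 0.148% and 0.153% of all FPKM in the lncOL1KO libraries and 0.0684% and 0.0605% in the Ctrl libraries. Its log2 fold change was 35th from the top among the genes tested. Without lncOL1KO replicate 1 or 2 the log2 fold change was 1.24 and 1.21 and the threshold was missed, and without Ctrl replicate 1 or 2 it was 1.33 and 1.12 and the threshold was still passed.

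Igf2, the gene of IGF-II, lies 79 kb from H19 (midpoint to midpoint) on the same strand, at 142650768 to 142661035 in the files. Its level was 18.9 and 18.8 FPKM in the lncOL1KO libraries and 10.1 and 9.25 FPKM in the Ctrl libraries. Both lncOL1KO libraries were above both Ctrl libraries, at nearly equal values. The mean was 18.9 ± 0.0780 FPKM in lncOL1KO and 9.67 ± 0.598 FPKM in Ctrl (SD, n = 2 each), a ratio of 1.95 and a log2 fold change of 0.90 (SE 0.074). Igf2 passed the threshold without Ctrl replicate 1 (log2 fold change 0.95) and missed it without lncOL1KO replicate 1 (0.89), lncOL1KO replicate 2 (0.90) and Ctrl replicate 2 (0.84). The antisense gene Igf2os, which overlaps its upstream part, was at 0.0386 and 0.0324 FPKM in lncOL1KO and at 0.0244 and 0 FPKM in Ctrl.

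Both genes of the pair were therefore higher in lncOL1KO, and the H19 to Igf2 ratio was also higher. H19 FPKM over Igf2 FPKM was 29.8 and 30.6 in the lncOL1KO libraries and 25.9 and 24.4 in the Ctrl libraries. Which parental chromosome the RNA came from was not measured. The authors' deposited table, with 1 pooled value per group, gives H19 at 603.7 FPKM in knockout and 272.5 in control (log2 fold change 1.15) and Igf2 at 18.3 FPKM in knockout and 9.98 in control (log2 fold change 0.88).

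RefSeq lists 4 start sites of Igf2, and the gene-level FPKM does not tell them apart. Windows from 250 bases before to 50 bases after each start were searched for GGGCGG, the core of the GC box that Sp1 binds, and the window with the most matches of the 4 is shown, at chr7:142657447-142657746 (GRCm38.p6, minus strand). Capitals mark GGGCGG.
Igf2 promoter: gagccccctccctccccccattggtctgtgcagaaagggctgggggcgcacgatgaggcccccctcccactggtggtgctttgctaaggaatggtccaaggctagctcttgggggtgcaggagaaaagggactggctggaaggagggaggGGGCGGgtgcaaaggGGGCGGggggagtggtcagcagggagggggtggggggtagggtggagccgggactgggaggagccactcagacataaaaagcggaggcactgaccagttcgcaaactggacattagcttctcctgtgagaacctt
Searched on both strands, this window holds GGGCGG at 2 places and TATAAA at 0. The other 3 Igf2 windows hold GGGCGG at 1, 0 and 0 places and TATAAA at 0, so the shown window was picked for its matches and its count is no finding. Of all 32851 RefSeq windows of this length, 35.7% hold GGGCGG and 13.6% hold TATAAA. A match is a description of the letters only.

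None of the other tested genes of the locus was called, and 12 genes are too few to compare a rate with the background. Of 46 genes in the files with a midpoint within 1 Mb of H19, other than H19 and Igf2 12 were tested, and limma called 0 of them higher and 0 lower, against 1.31% of all genes tested called in either direction. The number with an unadjusted p under 0.05 was 2, against 13.7% of all genes tested, and the median log2 fold change of the 12 was -0.05. The 2 tested genes within 200 kb were Mrpl23, a mitochondrial ribosomal protein gene, and Ctsd, the gene of the lysosomal protease cathepsin D. Mrpl23 was at 43.2 and 46.6 FPKM in lncOL1KO and at 40.1 and 41.5 FPKM in Ctrl (log2 fold change 0.13, limma adjusted p = 0.505; 0.08 without lncOL1KO replicate 2). Ctsd was at 149.6 and 153.2 FPKM in lncOL1KO and at 148.8 and 148.4 FPKM in Ctrl (log2 fold change 0.03, limma adjusted p = 0.923). Cd81, a tetraspanin gene 484 kb away, had a log2 fold change of -0.12 (limma adjusted p = 0.558), or -0.07 without Ctrl replicate 2. Ins2, the insulin gene next to Igf2, was listed at 0 in all 4 libraries.

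**Figure D2:**
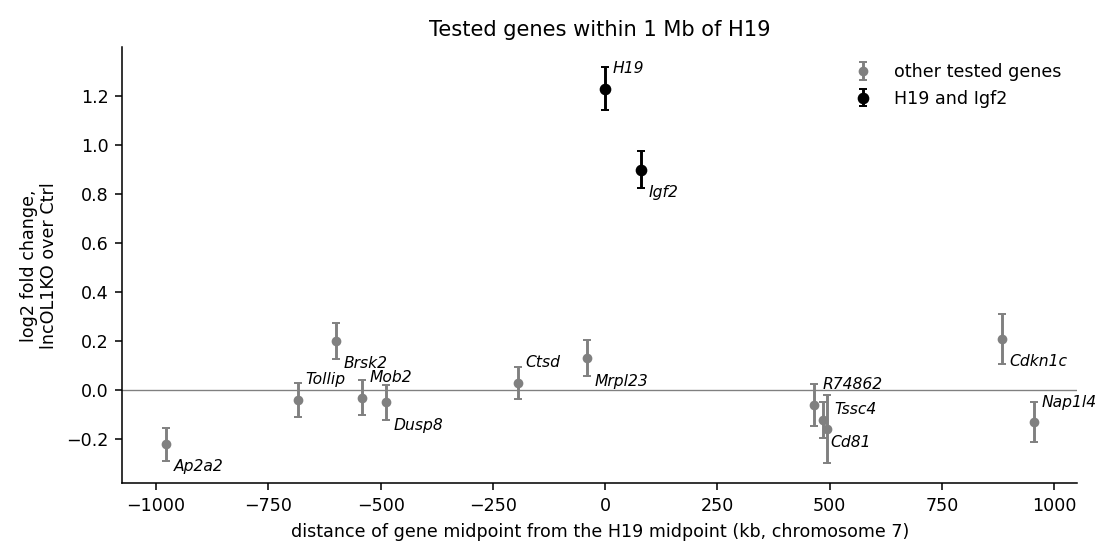
Log2 fold change of the tested genes within 1 Mb of H19, lncOL1KO over Ctrl, against the distance of each midpoint from that of H19 in kb on chromosome 7. Bars are limma standard errors from 2 libraries per group. H19 at 1.23 and Igf2 at 0.90 stand above the other 12 genes, of which limma called 0.

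Igf1, the gene of IGF-I, was near the bottom of the measured range. It had 0.415 and 0.118 FPKM in the lncOL1KO libraries and 0.0926 and 0.120 FPKM in the Ctrl libraries. lncOL1KO replicate 1 was the highest of the 4, the other lncOL1KO library lay between the Ctrl libraries, and no test was made. Igf2 FPKM over Igf1 FPKM was 45.6 and 159.9 in lncOL1KO and 109.1 and 77.2 in Ctrl, so Igf2 was the predominant IGF transcript in each library.

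The 3 receptor genes were expressed at similar levels. Igf1r, the gene of the signalling receptor, was at 7.69 and 7.44 FPKM in the lncOL1KO libraries and at 8.71 and 8.94 FPKM in the Ctrl libraries. Both lncOL1KO values lay below both Ctrl values, with a log2 fold change of -0.20 (SE 0.070) that did not pass the threshold. The authors' deposited table gives 7.16 FPKM in knockout and 8.71 in control for Igf1r (log2 fold change -0.28) and marks it as significant.

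Insr, the insulin receptor gene, was at 9.02 and 8.89 FPKM in lncOL1KO and at 8.76 and 9.12 FPKM in Ctrl. The groups overlapped, with a log2 fold change of 0.0022 (SE 0.070), and its sign was negative after quantile normalization (-0.01). Igf1r FPKM over Insr FPKM was 0.852 and 0.837 in lncOL1KO and 0.994 and 0.980 in Ctrl, which restates the lower Igf1r values.

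Igf2r, the clearance receptor, was at 9.06 and 8.52 FPKM in lncOL1KO and at 8.68 and 8.11 FPKM in Ctrl. The groups overlapped, with a log2 fold change of 0.06 (SE 0.076). With Igf2 higher and Igf2r at overlapping levels, Igf2 FPKM over Igf2r FPKM was 2.09 and 2.21 in lncOL1KO and 1.16 and 1.14 in Ctrl. The noncoding RNA Airn, named after its values were seen, overlaps Igf2r on the opposite strand and silences its paternal copy in many tissues. Airn was at 1.34 and 1.11 FPKM in lncOL1KO and at 0.513 and 0.470 FPKM in Ctrl, below the filter on its mean and not tested. Whether the counting used strand is not stated in the labels or headers, so reads of this antisense pair may not be told apart.

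Igfbp3 was the main binding protein transcript and the 1 member that passed as lower. It lies on chromosome 11 at 7206091 to 7213923 in the files (mm10), on the minus strand, and encodes IGFBP-3, a main carrier of IGFs in blood. Its level was 78.6 and 82.0 FPKM in the lncOL1KO libraries and 119.7 and 126.1 FPKM in the Ctrl libraries. Both lncOL1KO libraries were far below both Ctrl libraries compared with the distance within a group. The mean was 80.3 ± 2.39 FPKM in lncOL1KO and 122.9 ± 4.50 FPKM in Ctrl (SD, n = 2 each), a ratio of 0.654 and a log2 fold change of -0.61 (SE 0.070). Its log2 fold change was 88th from the bottom among the genes tested. With any 1 library left out Igfbp3 missed the threshold, at -0.58 and -0.64 without lncOL1KO replicates 1 and 2 and -0.64 and -0.57 without Ctrl replicates 1 and 2. The authors' deposited table gives 71.4 FPKM in knockout and 113.4 in control for Igfbp3 (log2 fold change -0.67).

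The RefSeq window around the start site of Igfbp3 (chr11:7213874-7214173, GRCm38.p6, minus strand) is shown beside that of Igf2 as the protein-coding member that passed in the other direction. It holds GGGCGG at 0 places and TATAAA at 0 on either strand, so it has no capitals.
Igfbp3 promoter: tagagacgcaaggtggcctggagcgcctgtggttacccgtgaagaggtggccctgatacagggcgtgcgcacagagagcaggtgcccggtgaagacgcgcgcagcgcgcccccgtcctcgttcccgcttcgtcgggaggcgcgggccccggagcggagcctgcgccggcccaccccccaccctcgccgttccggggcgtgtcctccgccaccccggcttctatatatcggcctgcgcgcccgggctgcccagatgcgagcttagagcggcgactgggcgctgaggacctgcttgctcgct
Its GC content was 71.7%, against 63.3% for the Igf2 window and a median of 52.7% over all windows.

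None of the other binding protein genes passed the threshold. Igfbp2, which encodes a binding protein abundant in the developing brain, was at 31.4 and 35.7 FPKM in lncOL1KO and at 32.3 and 31.5 FPKM in Ctrl. These values overlapped, with a log2 fold change of 0.07 (SE 0.083) whose sign turned without lncOL1KO replicate 2 (-0.02). The authors' deposited table gives lower levels of Igfbp2, 23.7 FPKM in knockout and 23.9 in control (log2 fold change -0.01). Sums and ratios with Igfbp2 below use the values of the libraries. Igfbp5, the neighbour of Igfbp2 on chromosome 1, was at 8.69 and 8.08 FPKM in lncOL1KO and at 7.01 and 7.06 FPKM in Ctrl. Both lncOL1KO values lay above both Ctrl values, with a log2 fold change of 0.22 (SE 0.074) that did not pass the threshold. Igfbp4 was at 0.548 and 0.986 FPKM in lncOL1KO and at 0.775 and 0.560 FPKM in Ctrl, overlapping and below the filter.

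Summed over Igfbp2 to Igfbp5, binding protein RNA was 119.3 and 126.8 FPKM in lncOL1KO and 159.9 and 165.2 FPKM in Ctrl. Igfbp3 made up 65.9% and 64.7% of that sum in lncOL1KO and 74.9% and 76.3% in Ctrl. Igfbp3 FPKM over Igfbp2 FPKM was 2.51 and 2.30 in lncOL1KO and 3.70 and 4.01 in Ctrl. The lower sum therefore came with a lower share of Igfbp3. As Igfbp3 makes up most of the sum, the sum, the share and the ratio largely restate its lower values. They are no separate findings.

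**Figure D3:**
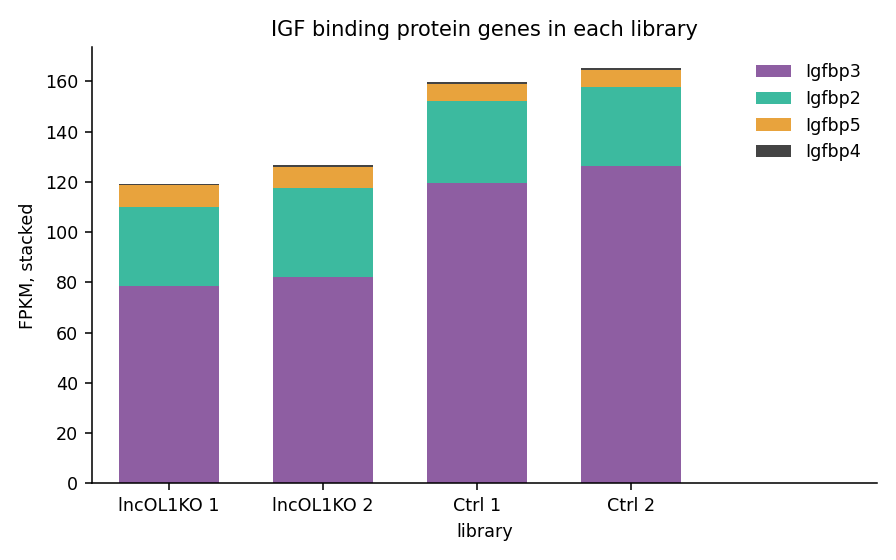
FPKM of 4 binding protein genes stacked for each library, the 2 lncOL1KO libraries left of the 2 Ctrl libraries. The stacks reach 119.3 and 126.8 FPKM in lncOL1KO and 159.9 and 165.2 FPKM in Ctrl, and the segment of Igfbp3 is shorter in both lncOL1KO libraries, while the mean of each other gene was not lower in lncOL1KO.

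The order of levels was nearly the same in both genotypes. FPKM is scaled to transcript length, so levels can be set side by side between genes. H19, Igfbp3, Igfbp2 and Igf2 were the 4 highest, in this order, in lncOL1KO and in Ctrl, and no neighbours among them overlapped within a group. In lncOL1KO they were followed by Insr, Igf2r, Igfbp5 and Igf1r, where Insr overlapped Igf2r and Igf2r overlapped Igfbp5. In Ctrl they were followed by Insr, Igf1r, Igf2r and Igfbp5, where Insr overlapped Igf1r. Igfbp4 and Igf1 came last in both groups, and their ranges did not overlap.

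**Figure D4:**
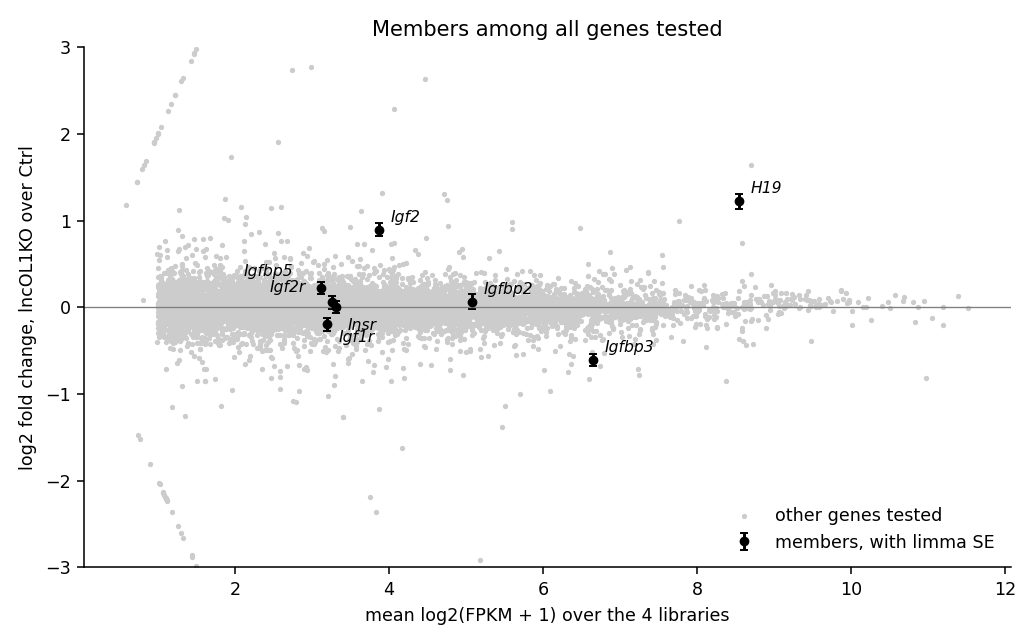
Log2 fold change, lncOL1KO over Ctrl, against mean log2(FPKM + 1) over the 4 libraries for all genes tested, with the 8 tested members in black with limma standard errors. H19 and Igf2 lie above the band of most genes and Igfbp3 below it, while 5 members lie in it, and 2 genes fall outside the plotted range of 3.

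Further genes of the pathway were taken from a list of 106 genes that holds 61 tested genes of the signalling arms (76 listed), 12 tested imprinting control factors and 3 tested neighbours of H19 and Igf2. Of all 76 tested, limma called 0 higher and 1 lower, against 0.528% and 0.783% of all genes tested. Their median log2 fold change was 0.01. At an unadjusted p under 0.05, 2 were higher and 5 lower, against 7.13% and 6.58% of all genes (13.7% in either direction). The list thus showed shares of called genes near the background.

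The called gene was Pik3r3, which encodes a regulatory subunit of the PI3-kinase that acts below the receptors. It was at 67.6 and 62.4 FPKM in lncOL1KO and at 101.5 and 103.6 FPKM in Ctrl, with no overlap (log2 fold change -0.65, SE 0.073, limma adjusted p = 0.0128). Leaving out any 1 library gave log2 fold changes of -0.71 to -0.59 that missed the threshold (limma adjusted p = 0.0839 to 0.144). Pik3r1, the gene of the more widely used subunit, was at 46.1 and 44.5 FPKM in lncOL1KO and at 40.4 and 40.6 FPKM in Ctrl (log2 fold change 0.16, limma adjusted p = 0.368). Inppl1, a lipid phosphatase gene, had a log2 fold change of -0.17 (limma adjusted p = 0.351).

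Among 13 tested receptor adaptors and phosphatases 0 were called in either direction. Irs2, the gene of an insulin receptor substrate, was at 17.2 and 22.8 FPKM in lncOL1KO and at 14.3 and 13.3 FPKM in Ctrl (log2 fold change 0.49, limma adjusted p = 0.156). Without lncOL1KO replicate 2 the log2 fold change of Irs2 was 0.30, and without lncOL1KO replicate 1 it was 0.68. Irs1 lay the other way, at 25.8 and 24.0 FPKM in lncOL1KO and 27.6 and 28.9 FPKM in Ctrl (log2 fold change -0.18, limma adjusted p = 0.367). Ptpn11, the gene of the SHP2 phosphatase that passes signals on to ERK, had a log2 fold change of -0.34 (limma adjusted p = 0.0884). In the ERK arm, 0 of 10 were called, and Mapk3, the gene of ERK1, was at 124.8 and 130.1 FPKM in lncOL1KO and at 162.2 and 166.8 FPKM in Ctrl (log2 fold change -0.37, limma adjusted p = 0.0681).

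No FOXO factor, of 4 tested, was called. Of the ligand processing genes, 3 of 11 were tested and 0 were called. Htra1, a secreted protease that cleaves IGF binding proteins, was at 0.994 and 0.812 FPKM in lncOL1KO and at 1.63 and 1.62 FPKM in Ctrl (log2 fold change -0.47, limma adjusted p = 0.115). Igfbp7 had a log2 fold change of 0.19 (limma adjusted p = 0.489), which was 0.31 without Ctrl replicate 1 and 0.08 without Ctrl replicate 2. Igf2bp2, which encodes a protein that binds Igf2 mRNA, had a log2 fold change of 0.17 (limma adjusted p = 0.358). Of the 12 tested imprinting control factors 0 were called and 0 had an unadjusted p under 0.05. Trim28, the corepressor that keeps imprints methylated, had a log2 fold change of 0.06 (limma adjusted p = 0.817). Ctcf, named for its place at the H19 control region and not by the naming rule, was at 27.7 and 23.3 FPKM in lncOL1KO and at 26.1 and 24.4 FPKM in Ctrl (log2 fold change 0.01, limma adjusted p = 0.982), and its sign turned without lncOL1KO replicate 1 (-0.11) and without Ctrl replicate 2 (-0.04).

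**Figure D5:**
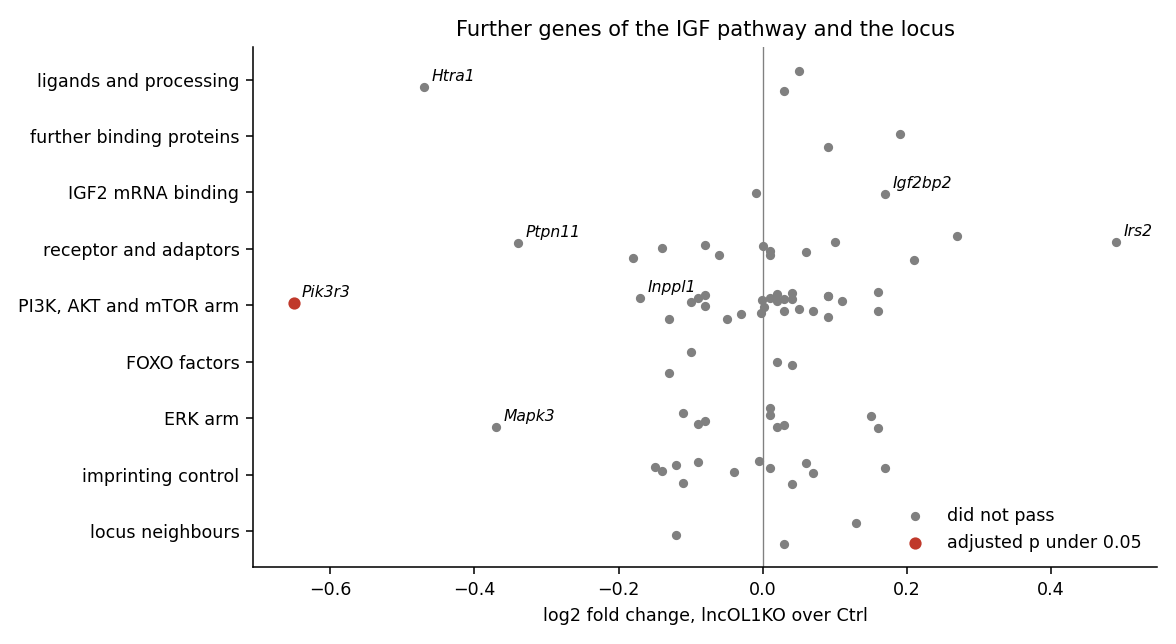
Log2 fold change, lncOL1KO over Ctrl, of the 76 tested further genes of the IGF pathway and the locus, by arm (1 point per gene, spread vertically at random within an arm). Pik3r3, in red, is the gene that passed, and named grey points had an unadjusted p under 0.05.

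Markers of other cells that express IGF genes were read beside these results. Of 9 microglia markers, 8 were higher in both lncOL1KO libraries than in both Ctrl libraries, against 22.6% of all genes tested. The exception, P2ry12, was at 0.0490 and 0.178 FPKM in lncOL1KO and at 0.158 and 0.0856 FPKM in Ctrl. P2ry12 and, among the 8, Aif1, Csf1r and Cx3cr1 were below the filter and not tested. The share over all genes covers only genes that passed it, so little can be read from the separation of Aif1, Csf1r and Cx3cr1. The summed level of the 9 was 22.4 and 26.6 FPKM in lncOL1KO and 9.48 and 10.5 FPKM in Ctrl. Of these markers 5 passed the filter, and 3 of the 5 were called higher, against 0.528% of all genes tested. C1qa and C1qb were not called (log2 fold changes 0.59 and 0.71, limma adjusted p = 0.317 and 0.0752). The 3 called were Fcrls, Tyrobp and Laptm5 (log2 fold changes 1.14, 1.01 and 1.03, with limma adjusted p = 0.00489, 0.0119 and 0.0101). Each of these 3 calls was lost without lncOL1KO replicate 1 (limma adjusted p = 0.0836, 0.125 and 0.0642) and without lncOL1KO replicate 2 (limma adjusted p = 0.111, 0.167 and 0.111). The calls of Tyrobp and Laptm5 were also lost without Ctrl replicate 1 (limma adjusted p = 0.0683 and 0.0926) and that of Laptm5 without Ctrl replicate 2 (limma adjusted p = 0.0722). The part of microglia in the values of H19, Igf2 and Igf1 was not tested.

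Of 12 markers of fibroblasts, meninges and mural cells, which are known to express H19 and Igf2, 10 were under 1 FPKM in all 4 libraries, and Slc6a13 and Twist1 were listed at 0 in all 4. Their summed level was 19.1 and 18.6 FPKM in lncOL1KO and 10.1 and 11.0 FPKM in Ctrl. That sum came mainly from the contractile genes Tagln, at 14.6 and 14.6 FPKM in lncOL1KO and 7.04 and 7.35 FPKM in Ctrl, and Acta2, at 3.07 and 3.32 FPKM in lncOL1KO and 1.15 and 1.72 FPKM in Ctrl. Tagln and Acta2 rose (log2 fold changes 0.93 and 0.80, limma adjusted p = 0.00433 and 0.0488). Without lncOL1KO replicates 1 and 2 neither passed (limma adjusted p = 0.0731 and 0.0882 for Tagln, 0.225 and 0.327 for Acta2), and Acta2 also missed without Ctrl replicates 1 and 2 (limma adjusted p = 0.167 and 0.0567).

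The collagen and decorin markers lay the other way. Col1a1 was at 0.522 and 0.274 FPKM in lncOL1KO and at 0.592 and 0.688 FPKM in Ctrl. Dcn was at 0.0314 and 0 FPKM in lncOL1KO and at 0.119 and 0.0507 FPKM in Ctrl. In all, 6 of the 12 were lower in both lncOL1KO libraries than in both Ctrl libraries, and 2 were higher. Over all genes tested, 20.7% were lower in this way and 22.6% higher. The 6 lower markers were under 1 FPKM in all 4 libraries and not tested, so little can be read from their separation. All 6 endothelial markers were under 1 FPKM in all 4 libraries, so none was tested. Limma called 0 of the 12 tested choroid plexus, astrocyte, neuron and skeletal muscle markers in either direction. Myod1 and Myog were listed at 0 in all 4 libraries. The 6 astrocyte markers had a summed level of 376.3 and 356.5 FPKM in lncOL1KO and 410.8 and 386.1 FPKM in Ctrl. This was above the summed level of the 9 microglia markers in each library. Of the 6 astrocyte markers, 3 were lower in both lncOL1KO libraries and 0 were higher, against 20.7% and 22.6% of all genes tested. The part of astrocytes in the values of the members was not tested.

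The genes with the profile most like that of H19 were sought by the Euclidean distance between log2(FPKM + 1) profiles over the 4 libraries, each centred on its mean, among 10712 conventionally named tested genes. Nearest were Tuba1c (distance 0.110), a tubulin gene whose reads can be shared with near-identical copies, Slc13a3 (0.221), a dicarboxylate transporter gene, Ppp1r3e (0.265), a phosphatase subunit gene, and the microglial genes Fcrls (0.297) and Laptm5 (0.299). Igf2 came 8th (0.336). Slc13a3, for example, was at 5.29 and 5.39 FPKM in lncOL1KO and at 2.10 and 2.04 FPKM in Ctrl.

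Nearest to Igf2 were S100a13 (distance 0.0232), a calcium-binding protein gene, Dscaml1 (0.0740), a cell adhesion gene, and Cnn2 (0.0821), which encodes an actin-binding calponin, and H19 came 39th. S100a13 was at 122.0 and 121.9 FPKM in lncOL1KO and at 66.4 and 61.7 FPKM in Ctrl. These distances describe 4 libraries of 2 genotypes, and any gene with a like difference between the genotypes comes out near.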

How the data were processed

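For each of the 4 samples the authors deposited gene-level FPKM with a quantification status, per the file headers. Tools named in the submitters' processing notes are Cuffdiff, Cufflinks, TopHat and CASAVA, and the build is mm10. Versions, annotation and strand setting are not stated there. The authors' own comparison, also deposited, holds pooled FPKM, log2 fold changes, p-values and q-values, and is quoted as theirs.

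Rows of a symbol were summed (258 symbols with more than 1 row) and 9 symbols whose status was not OK were dropped. The 11361 genes averaging 1 FPKM or more entered a limma 3.58.1 fit (R 4.3.3) of log2(FPKM + 1) (eBayes with an expression trend, no covariate, 2 residual degrees of freedom), lncOL1KO minus Ctrl, with Benjamini-Hochberg adjustment over all of them. Count models do not apply to FPKM, and the pseudocount of 1 understates the change of low genes. The fit was tested on simulated data. FPKM carries no depth, so no counting interval is given.

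The members, the further lists and the naming rule were chosen with earlier results of these data known. The rule names the members, called list genes, the 3 with the smallest p and the 3 most abundant of each arm (not all are printed), tested genes within 200 kb of H19, and the nearest profiles (5 for H19, 3 for Igf2). Ctcf, Airn, Lsp1 and Inpp5d fall outside it, as do the list genes named beside Lsp1 and Inpp5d. Listed Hras was matched by its synonym. Mature microRNA and promoter sequences are from RefSeq tables of GRCm38.p6, the same assembly as mm10, and promoters matched 8 of 10 members.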

Additional observations from a re-analysis of the deposited data

How the results depend on the processing

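All 11 alternatives kept the direction of H19 (1.12 to 1.33), Igf2 (0.84 to 0.96, and 0.84 to 0.95 with 1 library left out) and Igfbp3 (-0.64 to -0.57). Without the filter on low values their log2 fold changes of 1.23, 0.90 and -0.61 missed the threshold, the members called were 0 higher and 0 lower, the pathway genes called lower 0, and calls over all genes 1 higher and 3 lower. With each library left out, calls over all genes were 11 to 16 higher and 5 to 26 lower, members called 0 to 2 higher and 0 to 0 lower, and pathway genes called lower 0 to 0. Such a fit has 1 sample in a group, assumed to vary like the other group, and fewer residual degrees of freedom, so a lost call does not show that a value rests on 1 library. With the replicate block, calls were 158 higher and 183 lower over all genes and 3 lower in the pathway list (Pik3r3, Ptpn11 and Mapk3), and the calls of the members did not change. Same-numbered libraries did not deviate together (correlation across genes -0.05), so the numbers were not taken to pair them. Of 36 genes with a log2 fold change, 33 kept their sign under every alternative run. The others lay near 0: Insr was at -0.01 after quantile normalization, and from -0.02 to 0.03 with 1 library left out, Igfbp2 from -0.02 to 0.16, and Ctcf from -0.11 to 0.13. The depth behind each value is unknown, so the precision of Igf1 and Igfbp4, both under 1 FPKM, cannot be given.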

Other observations

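Of the locus and pathway genes, Lsp1 and Inpp5d, both known from immune cells, lay higher in both lncOL1KO libraries, as did 22.6% of all genes tested. They were below the filter, not tested, and named after their values were seen. In the list of 106 genes, Ascl2 and Igf2os, also below the filter, lay higher in both lncOL1KO libraries too. Igfals, Adam28, Dnmt3b and Tnnt3, likewise below the filter, lay lower in both. The cells that Lsp1 and Inpp5d RNA came from were not tested. Lsp1, a leukocyte actin-binding protein gene 99 kb from H19, was at 0.376 and 0.267 FPKM in lncOL1KO and at 0.114 and 0.130 FPKM in Ctrl. Inpp5d, the gene of the phosphatase SHIP1, was at 0.297 and 0.294 FPKM in lncOL1KO and at 0.120 and 0.129 FPKM in Ctrl. The binding protein gene Igfbp1, the insulin gene Ins1 and the imprint factor gene Dppa3 were listed at 0 in all 4 libraries.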
